A study of Mus musculus with 4 samples.

Results

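The comparison set mouse bone marrow-derived dendritic cells (BMDCs) lacking GOLPH2 (KO) against wild-type (WT) BMDCs after IFN-gamma and LPS. BMDCs are myeloid cells grown from marrow in culture that take up, process and present antigen. The mice were C57BL/6 and 8 weeks old, with the KO genotype written GOLPH2-/-. The stimulated groups received IFN-gamma for 16 h and then LPS, a component of the bacterial outer membrane, for 4 h. Each group held 1 mRNA library, and the unstimulated KO and WT cells gave 1 library each. All 15310 genes of the authors' deposited table of the stimulated cells were taken, of 15881 genes in the series, and 14823 of them also had a row in the table of the unstimulated cells. The labels do not state how much of the gene the deletion removes, how many mice each library drew on or whether the 2 states came from the same cultures. With 1 library per group no difference has a replicate check, and every statement compares these libraries, not the genotypes at large.

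IFN-gamma binds a receptor that signals through JAK kinases to genes with GAS elements in their promoters. LPS acts through TLR4 along a pair of adaptor routes, one to NF-kB and inflammatory cytokines and one to IFN-beta. IFN-beta acts back on the cells through its own receptor and raises antiviral genes, many of which carry interferon-stimulated response elements (ISREs). GOLPH2, encoded by Golm1, is a membrane protein of the cis-Golgi that can be cleaved by furin-type proteases and released from cells.

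The ratios and p-values in the authors' deposited table were precise enough to give back the read count of each gene in both libraries, apart from 50 genes whose −log10 p is listed at its highest value of 150. The library totals fitted to these values were 36782071 reads (KO) and 37711574 reads (WT), with a median of 488 and 498 reads per gene with a count. The recovered counts left 10.97% of the KO and 10.7% of the WT total. That remainder holds the 50 genes without counts and any counted gene that has no row. The fitted totals of the unstimulated libraries were 39557587 (KO) and 34645812 (WT) reads. Levels below are reads per 1000000 reads of the library (CPM), and ratios are log2 of KO over WT CPM; an error after ± is the counting standard error (SE), which covers the sampling of reads and not the spread between cultures. The median SE was 0.09. For genes at the highest listed p the value is the largest SE that the deposited p allows, and is written "at most". Where such a ratio is far from 0, the counting SE can lie somewhat above it. A gene is called higher or lower in the KO library where the ratio was at least 0.32 log2 units from 0 and the Benjamini-Hochberg adjusted deposited p was under 0.001. By that rule 191 genes (1.248%) were higher and 323 (2.11%) were lower, and these 2 percentages are the background for the counts of members below. At 1.5-fold or more, 65 genes (0.425%) were higher and 91 (0.594%) lower. In the unstimulated libraries 190 genes (1.23%) were higher and 182 (1.18%) lower. The ratio also moved with exon length. As an alternative chosen after seeing the data, each gene was centred on genes of like exon length. Calls of named genes that ended with this centring are marked as such.

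**Figure D1:**
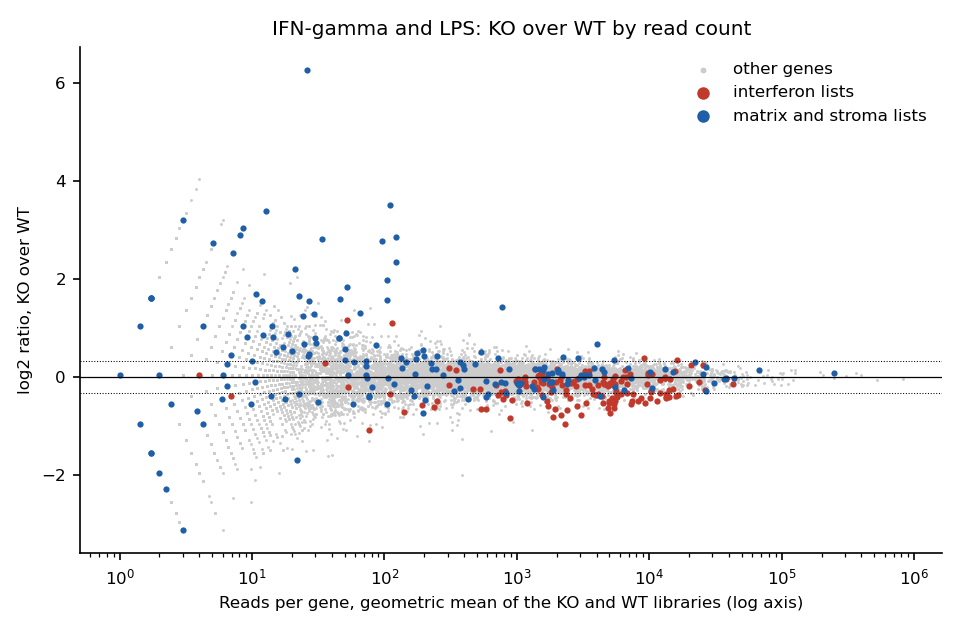
Each point is a gene with a recovered count of at least 1 read in both stimulated libraries. It is drawn at the geometric mean of its KO and WT reads (log axis) and its log2 ratio of KO over WT. Dotted lines mark the fold needed for a call. The 50 genes without recovered counts, Ifit1, Ifit2 and Ifit3 among them, are not drawn. The points of the interferon lists lie mostly below 0 (median -0.24 over all 168 members, drawn or not). The highest matrix points belong to genes with few reads, such as Col3a1 with 226 and 3.

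Golm1, the targeted gene (GRCm38 chromosome 13, 59634996 to 59675784), had 5.17 CPM in the KO library and 20.7 in the WT library after stimulation. This was 190 reads against 779, a ratio of -2.00 ± 0.12. The unstimulated libraries gave -2.09 ± at most 0.10. Reads of the gene were thus fewer in both KO libraries and were not at 0. Among 23 Golgi membrane proteins in the table Golm1 was the only member called lower, and the median of the list was -0.06. Golph3, which encodes an unrelated Golgi protein with a similar name, stood at 152.8 CPM in KO and 157.2 in WT (-0.04 ± 0.03).

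Interferon-linked genes held more called members than any other group of lists, and most of these were lower in the stimulated KO library. The members of all lists were chosen with earlier results of these data known, so the counts are a description and not a test. Of 168 genes in the 13 interferon lists, 68 were lower and 4 higher, with a median ratio of -0.24 against 0.01 over all genes. At 1.5-fold or more, 25 of the 91 lower genes were members. In unstimulated cells only 1 of these 68 genes was also lower (Rnf125), and 3 were higher (Ifit2, Iigp1 and Mx1). Mx1, and Mx2 and Cxcl11 described below, are annotated as transcribed pseudogenes in this strain's reference.

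Antiviral effectors, the proteins that block viral replication inside the cell, gave the longest list of lower genes. Of 33 members 20 were lower and 1 higher, with a median of -0.43, and 32 lay below 0. Ifit2 and Ifit3, which bind viral RNA or the translation machinery, fell by 1.17 ± at most 0.05 and 1.14 ± at most 0.04. Ifit1 was at -0.95 ± at most 0.04, Cmpk2, a nucleotide kinase of mitochondria, at -1.07 ± at most 0.04, and Rsad2, which encodes viperin, at -0.93 ± at most 0.04. These 5 genes are among the 50 without read counts, and each had at least 1380 reads in the KO library. The unstimulated libraries gave 24.1 (KO) and 19.1 (WT) CPM for Ifit2, a ratio of 0.33 ± 0.07, and 21.1 and 18.8 for Ifit3 (0.16 ± 0.08). Both were thus on the other side of 0 before stimulation.

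Mx2, a gene of the dynamin-like GTPase family, had 44.1 CPM in the stimulated KO library and 86.5 in the stimulated WT library (-0.97 ± 0.04), against 13.0 and 10.2 unstimulated. Oas2, which makes the 2'-5' oligoadenylate that activates RNase L, had 17.7 and 31.7 stimulated (-0.84 ± 0.07) and 12.4 and 13.1 unstimulated. Eif2ak2, the kinase PKR that stops translation on double-stranded RNA, had 62.3 and 94.2 stimulated (-0.60 ± 0.04) and 39.6 and 38.9 unstimulated. In each of these 3 genes both stimulated libraries were above both unstimulated ones, and the KO library was the lower of the stimulated pair. Ifi44 (-0.83 ± 0.05), Oas3 (-0.71 ± at most 0.03) and Isg20, an exonuclease for RNA (-0.48 ± 0.07), were lower as well. Not all effectors were: the membrane proteins Ifitm3 (-0.01 ± 0.03) and Bst2 (tetherin, -0.01 ± 0.02) had ratios next to 0. The 1 higher member, Ch25h, makes 25-hydroxycholesterol and stood at 4.49 CPM in KO and 2.09 in WT (1.10 ± 0.20). Ch25h was also higher unstimulated (0.68 ± 0.12).

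ISG15 is a ubiquitin-like protein that is attached to other proteins during an interferon response. Of 6 genes of its conjugation cycle 5 were lower, with a median of -0.46. Isg15 itself had 257.5 CPM in KO and 362.1 in WT (-0.49 ± 0.02). Usp18, the protease that removes ISG15 and also restrains the IFN-alpha/beta receptor, was at -0.81 ± at most 0.03, the E1 enzyme Uba7 at -0.49 ± 0.03 and the ligase Herc6 at -0.44 ± 0.02. No member was called in the unstimulated libraries.

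Guanylate-binding proteins (GBPs) and immunity-related GTPases (IRGs) are the GTPases that IFN-gamma induces against pathogens in vacuoles. Of 11 GBP genes 8 were lower and all 11 lay below 0, with a median of -0.38. Gbp9 was at -0.73 ± at most 0.03, Gbp6 at 58.8 against 78.8 CPM (-0.42 ± 0.04) and Gbp4 at 377.3 against 491.6 (-0.38 ± 0.02). Gbp5 (-0.26 ± 0.01) and Gbp7 (-0.28 ± 0.02) were below 0 without reaching the fold. Of 9 IRG genes 6 were lower, with a median of -0.41. Irgm2, a regulatory IRG that sits on Golgi and other membranes, had 105.3 CPM in KO and 176.6 in WT (-0.75 ± 0.03), and the unstimulated values were 34.3 and 32.6. Igtp had 117.0 and 180.4 (-0.63 ± 0.03) and Tgtp1 162.4 and 237.8 (-0.55 ± 0.02). Irgm1, also a regulatory IRG, had 291.1 and 365.6 (-0.33 ± 0.02, a call that ended with centring by exon length). The named IRG genes were well covered by reads in both stimulated libraries, at a level in KO that was between 59.6% (Irgm2) and 79.6% (Irgm1) of WT. Several of them, like the Ifit, Oas1, Slfn and Trim30 genes, have near-identical neighbours, and the labels do not state how the counting split reads between copies.

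Other interferon-linked families also held lower members and no higher one. Of 8 Schlafen genes, whose products include nucleases and growth regulators, 5 were lower with a median of -0.55. Slfn8 had 43.9 CPM in KO and 75.3 in WT (-0.78 ± 0.05), whereas Slfn2, with 1011 and 1033, was at -0.03 ± 0.01. Of 8 PARP-family genes linked to interferon 5 were lower, among them Parp12 (-0.56 ± 0.03), Parp14 (-0.53 ± at most 0.02) and Dtx3l (-0.50 ± 0.02), the ligase partner of PARP9. Of 16 TRIM-family genes 7 were lower, with Trim56 at 11.5 against 18.2 CPM (-0.66 ± 0.09), Pml, the organiser of nuclear bodies, at -0.53 ± 0.04 and the Fc receptor and ligase Trim21 at -0.50 ± 0.05. The PYHIN family of DNA sensors stood apart. Of its 9 genes Ifi204 alone was lower (-0.42 ± 0.02), and 4 of the 9 were higher in the unstimulated libraries, where the median was 0.36 against -0.15 stimulated.

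The RIG-I-like helicases, which detect viral RNA in the cytosol, were lower. Of 21 genes for cytosolic nucleic acid sensing 8 were lower and none higher, and 20 of the 21 lay below 0. Ddx58, which encodes RIG-I, had 62.7 CPM in KO and 107.2 in WT (-0.77 ± 0.04), and Dhx58, which encodes LGP2, 50.8 and 80.6 (-0.67 ± 0.04). Ifih1, which encodes MDA5, had 124.0 and 173.9 (-0.49 ± 0.03). Mavs, the mitochondrial adaptor below RIG-I and MDA5, was at -0.14 ± 0.06, the kinase Tbk1 at -0.17 ± 0.03 and Tmem173, which encodes the DNA-sensing adaptor STING, at 0.17 ± 0.05. Rnf125, a ligase that marks RIG-I for degradation, had 52 and 113 reads (-1.08 ± 0.24) and was lower unstimulated too (-1.44 ± 0.28). It was the 1 gene of the list that was also lower unstimulated.

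Few of the components that carry the interferon signal were called. Ifnar1, Ifnar2, Ifngr1 and Ifngr2, the receptor chains for IFN-alpha/beta and IFN-gamma, had ratios of -0.07 ± 0.03, 0.07 ± 0.02, -0.21 ± 0.05 and 0.00 ± 0.03, none of them called. Ifnlr1, the chain for IFN-lambda, was lower at 2.94 against 4.85 CPM (-0.73 ± 0.18). Of 11 genes for JAK kinases and STAT factors all 11 lay below 0 with a median of -0.13, and 2 were lower, among them Stat2 (307.5 against 413.5 CPM, -0.43 ± 0.02). Stat2 is itself an interferon-stimulated gene. None of 12 interferon regulatory factors was called; Irf1 was at -0.27 ± 0.02, Irf9 at -0.17 ± 0.03, Irf7 at -0.10 ± 0.01 and Irf8, a factor of myeloid identity, at 0.24 ± 0.01. Ifnb1, the IFN-beta gene, had 39 reads in KO and 33 in WT (0.28 ± 0.34), with an SE larger than the ratio, so a difference was not detectable at this depth. Ifng was higher, with 77 reads against 35 (1.17 ± 0.29). Of 16 inhibitors of cytokine signalling Socs2 (0.38 ± 0.02) and Cish (0.35 ± 0.02) were higher, and Socs1, which restrains JAK kinases under IFN-gamma, was at 0.12 ± 0.02.

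**Figure D2:**
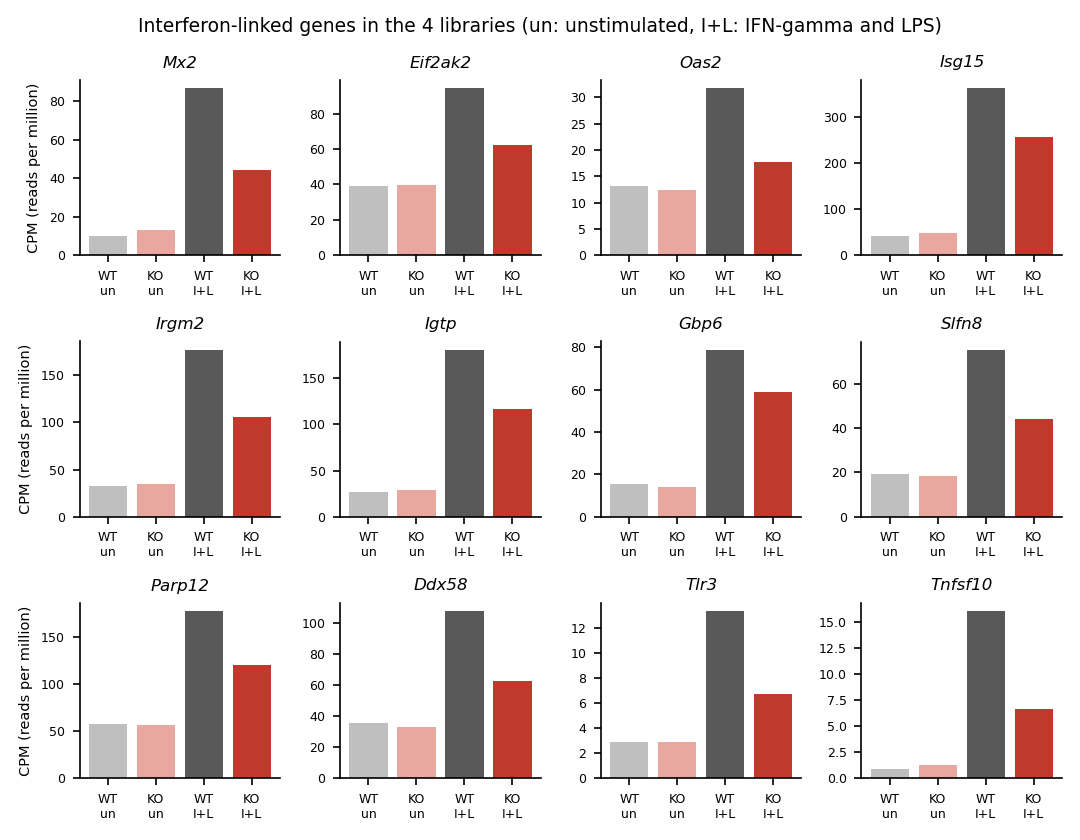
CPM of 12 interferon-linked genes in each of the 4 libraries, 1 bar per library with no error bar because each group holds 1 library. All 12 are genes called lower, so by that choice the stimulated KO bar is lower than the stimulated WT bar in every panel. In Irgm2 the values are 105.3 and 176.6.

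The levels in the 4 libraries can be set side by side because CPM were computed from each library's own total, although the 2 tables were deposited separately. For the 26 antiviral effectors with read counts in all 4 libraries, the median ratio of stimulated over unstimulated was 0.87 in WT and 0.38 in KO on the log2 scale. For 9 GBP genes it was 2.22 in WT and 1.90 in KO, and for 9 IRG genes 2.64 and 1.99. Over 14705 genes it was -0.14 in WT and -0.16 in KO. These responses share the stimulated libraries with the KO over WT ratios above and are given as levels, not as further support.

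A promoter feature that the ratios did not use was then examined. The core of the ISRE was searched as GAAA, NN and GAAA in a row (N for any base) on both strands in the 250 bases before each RefSeq transcript start (GRCm38.p6); 11920 of the 15310 genes matched a window. It was present in 404 of them (3.39%), and in 2.98% of all 32851 mouse windows. Among genes called lower 40 of 244 held it (16.4%), and among those lower at 1.5-fold or more 18 of 68 (26.5%). Among genes called higher 4 of 147 held it (2.72%). Lower genes that are in no interferon list held it in 19 of 195 cases (9.74%). The core of the GAS element, TTC, NNN and GAA in a row, searched the same way, was in 7.37% of all genes, 7.38% of lower genes and 8.16% of higher genes. Within the interferon lists the GAS core was in 8 of 49 lower genes (16.3%) and 12 of 76 genes not called (15.8%). It was in 5.13% of lower genes outside these lists. The ISRE core was in 21 (42.9%) and 18 (23.7%) of the same 49 and 76 genes. Both cores were thus more frequent in interferon-list genes than over all genes, called or not. A match is a description of letters and not of a bound site. The stretches below show the motif, in capitals, before a RefSeq transcript start of 6 genes that were lower in KO; it reads TTTC, NN and TTTC where it lies on the opposite strand, and the lines are shown to let the copies be compared.
Ifit3: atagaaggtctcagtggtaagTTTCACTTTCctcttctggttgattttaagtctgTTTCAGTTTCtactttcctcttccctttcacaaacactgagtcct
Ifit1: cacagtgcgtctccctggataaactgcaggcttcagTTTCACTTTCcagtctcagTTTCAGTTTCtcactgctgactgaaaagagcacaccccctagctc
Rsad2: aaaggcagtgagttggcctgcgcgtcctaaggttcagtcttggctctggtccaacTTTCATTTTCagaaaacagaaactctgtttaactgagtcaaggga
Oas3: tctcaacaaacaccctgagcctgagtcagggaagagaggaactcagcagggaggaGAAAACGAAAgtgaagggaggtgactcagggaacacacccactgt
Irgm2: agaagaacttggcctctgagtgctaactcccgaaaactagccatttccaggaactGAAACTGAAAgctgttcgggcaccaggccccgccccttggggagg
Slfn8: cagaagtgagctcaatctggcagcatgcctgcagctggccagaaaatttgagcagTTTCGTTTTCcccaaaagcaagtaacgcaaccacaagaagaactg
They lie at chr19:34583352-34583451 (Ifit3, plus strand), chr19:34640749-34640848 (Ifit1, plus strand) and chr12:26456528-26456627 (Rsad2, minus strand). Those of Oas3 (minus strand), Irgm2 (plus strand) and Slfn8 (minus strand) lie at chr5:120777690-120777789, chr11:58214858-58214957 and chr11:83020814-83020913. The stretches of Ifit1 and Ifit3 each hold 2 copies of the core, the others 1. That of Ifit3 precedes a start that lies inside the gene's annotated span.

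Genes of the LPS response were changed in smaller numbers and in both directions. Of 229 members in 13 lists 12 were higher and 23 lower, with a median of -0.04. With centring by exon length 7 were higher and 22 lower. Among 18 Toll-like receptor genes and LPS co-receptors 4 were lower. Tlr3, the endosomal receptor for double-stranded RNA, had 6.74 CPM in KO and 13.3 in WT (-0.98 ± 0.11), against 2.91 and 2.92 unstimulated. Tlr2, the receptor for bacterial lipopeptides, had 97.2 and 152.3 (-0.65 ± 0.03) and was lower unstimulated as well (-0.99 ± at most 0.05). Tlr4, the LPS receptor, was at 131.3 and 112.5 (0.22 ± 0.03) and was not called. The adaptor Ticam2, which links TLR4 to the IFN-beta route, was lower stimulated (-0.44 ± 0.05) and unstimulated (-0.48 ± 0.06), while Ticam1 (-0.05 ± 0.04) and Myd88 (-0.20 ± 0.04) were not called. Of 15 NF-kB subunits and inhibitors Tnfaip3, which encodes the inhibitor A20 (-0.36 ± 0.01), and Rel (-0.34 ± 0.04) were lower, and both calls ended with centring by exon length.

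Among cytokines, Il12b, the shared subunit of IL-12 and IL-23, was lower stimulated (-0.83 ± at most 0.03, 56.2% of WT) and unstimulated (56.8 against 91.1 CPM, -0.68 ± 0.04). It was the 1 called member of 5 IL-12 family subunits, with Il12a at -0.18 ± 0.05, Il23a at 0.10 ± 0.11, Ebi3 at -0.01 ± 0.03 and Il27 at -0.25 ± 0.07. Il6 (623.3 and 727.7 CPM, -0.22 ± 0.01), Tnf (-0.07 ± 0.02) and Il1b (-0.07 ± 0.01) were not called. Il15, which sustains natural killer and memory T cells, was lower (57.1 and 79.7, -0.48 ± 0.04), and its unstimulated ratio was 0.08 ± 0.06. Tnfsf10, the death ligand TRAIL, had 6.63 and 16.0 CPM (-1.27 ± 0.11) against 1.31 and 0.87 unstimulated. Ido1, which degrades tryptophan, had 3.51 and 6.97 (-0.99 ± 0.16). Tnfsf10 and Ido1, like Il15, are interferon-inducible genes outside the interferon lists.

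Chemokine genes, whose products draw leukocytes to a site, were called in both directions. All 14 CC chemokine genes lay above 0, with a median of 0.28, and 6 were higher, led by Ccl17, a chemokine for CCR4-bearing T cells (0.60 ± at most 0.02), and Ccl8 (8.29 against 5.73 CPM, 0.53 ± 0.13). Ccl4 (0.35 ± 0.02), Ccl6 (0.36 ± at most 0.01), Ccl9 (0.33 ± at most 0.01) and Ccl24 (0.33 ± 0.04) were the others. With centring by exon length these 4 calls ended, Ccl17 and Ccl8 stayed called and 11 of the 14 lay above 0. Of 13 CXC chemokine genes 2 were lower, Cxcl10, a CXCR3 ligand (74.9 and 115.9, -0.63 ± 0.04) and Cxcl11 (2.77 and 4.88, -0.82 ± 0.18). Cxcl9, another CXCR3 ligand, was at 12.5 and 10.7 (0.22 ± 0.10), and the 1 higher member was Pf4, platelet factor 4 (47.8 and 37.4, 0.35 ± 0.05), whose call ended with centring by exon length. The arginine enzymes differed from each other: Arg1, which makes ornithine, was higher in both states (0.62 ± at most 0.02 stimulated and 0.56 ± at most 0.03 unstimulated), and Nos2, the inducible nitric oxide synthase, was at -0.26 ± at most 0.01, under the fold.

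Antigen presentation showed few called genes. Of 71 members in 5 lists 1 was higher and 2 lower, with a median of -0.01. None of 12 MHC class II pathway genes, 7 immunoproteasome genes and 14 constitutive proteasome genes was called. H2-Ab1 had 1136 and 1065 CPM (0.09 ± 0.01), and H2-K1 5615 and 5479 (0.04 ± 0.00). Among 19 class I genes Nlrc5, the transactivator of class I genes, was lower (146.5 and 204.2, -0.48 ± 0.03), with H2-T24 (-0.43 ± 0.06). Pdcd1lg2, which encodes the inhibitory ligand PD-L2, was the 1 higher costimulation gene (0.41 ± 0.02), and Cd86 (0.18 ± 0.02), Cd80 (-0.08 ± 0.02) and Cd40 (-0.16 ± 0.02) were not called.

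**Figure D3:**
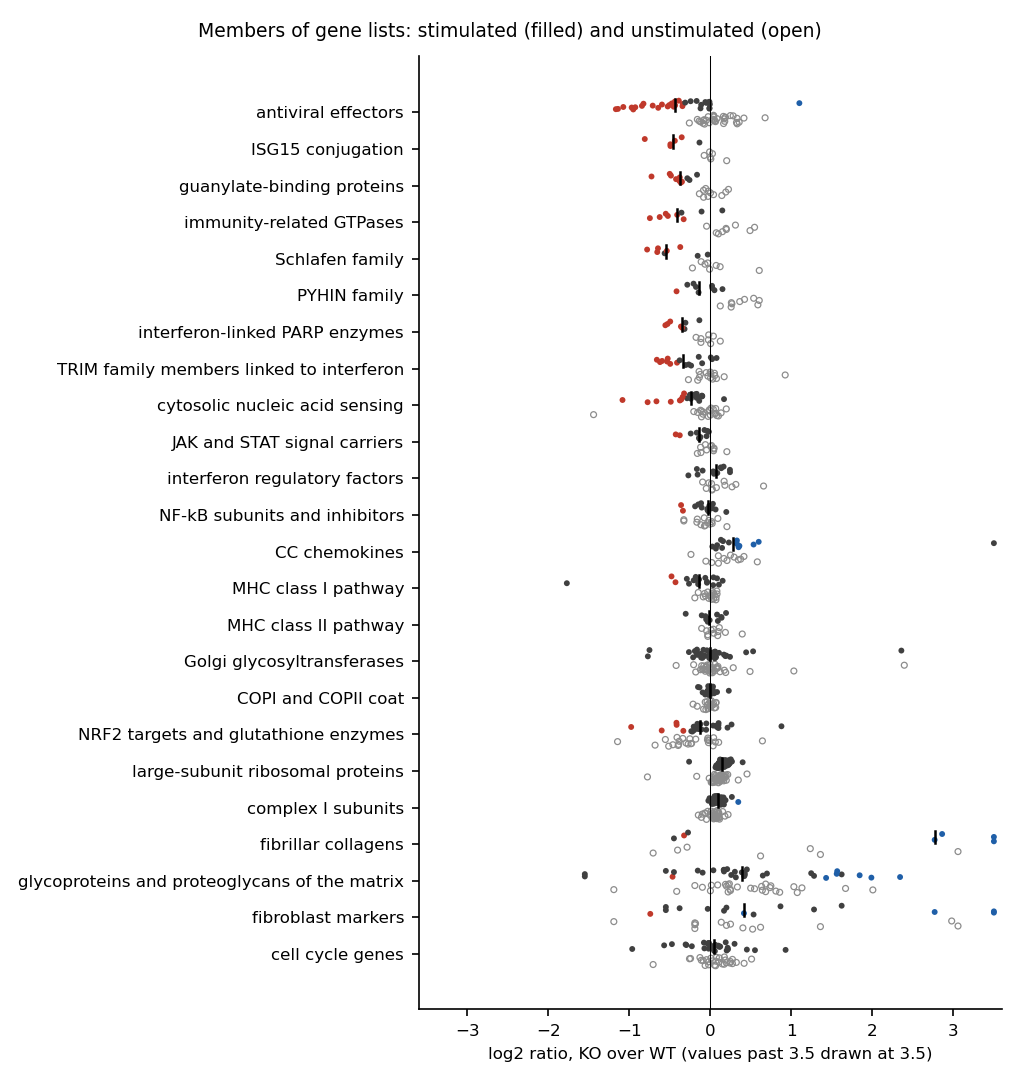
Log2 ratios of KO over WT for the members of 24 gene lists; filled points are stimulated (blue called higher, red called lower, dark grey not called), open points are unstimulated, and the black bar is the stimulated median. The stimulated medians of the interferon lists from antiviral effectors to nucleic acid sensing lie between -0.15 and -0.55, and the fibrillar collagens spread to the right.

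The labelled cell type was checked against its markers. The dendritic markers Itgax (451.6 and 370.6 CPM, KO and WT), Cd74 (3494 and 3298) and H2-Ab1 were well covered, Flt3 (10.3 and 9.41) and Zbtb46 (836 and 942 reads) had fewer reads, and Clec9a had 43 and 44. The macrophage genes Emr1 (1078 and 984.5), which encodes F4/80, and Csf1r (406.9 and 450.3) were well covered in both libraries too, so markers of macrophages were read beside those of dendritic cells. In bulk RNA, fewer cells of a type and less RNA per cell cannot be told apart. Of 17 dendritic markers 2 were higher, the lectin Clec10a (6.63 and 3.66, 0.86 ± 0.15) and the factor Batf3 (79.7 and 53.7, 0.57 ± 0.04), and both were higher unstimulated (0.84 ± 0.12 and 0.52 ± 0.04). Of 24 macrophage and monocyte markers 4 were higher and 1 lower, with the complement subunits C1qb (0.94 ± 0.15) and C1qc (0.65 ± 0.15) also higher unstimulated and the scavenger receptor Marco lower in both states (-0.36 ± 0.05 and -0.45 ± 0.05). These 5 identity genes were called in the same direction in both states. The other higher macrophage and monocyte markers, Fcgr4 and Lyz1, are not among the 5. The call of Lyz1 ended with centring by exon length. Of 15 complement genes 2 were higher and 2 lower in stimulated cells.

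Metabolic and housekeeping genes gave 6 higher and 12 lower among 345 members. With centring by exon length 2 were higher and 12 lower. NRF2 is the factor that raises antioxidant enzymes. Of 26 of its targets and glutathione enzymes 5 were lower and none higher, and 10 were lower unstimulated. Nqo1, a quinone reductase, had 27.4 and 41.5 CPM (-0.60 ± 0.06), Gsta3 55 and 111 reads (-0.98 ± 0.24) and Hmox1, which breaks down heme, 491.8 and 619.4 CPM (-0.33 ± 0.01). The unstimulated ratios of Nqo1 (-0.68 ± 0.06), Gsta3 (-1.15 ± 0.20) and Hmox1 (-0.40 ± at most 0.02) had the same sign. Of 25 iron genes 3 were lower. Hamp2, a hepcidin-family gene, was at -1.70 ± at most 0.07, or 30.8% of WT, and at -0.26 ± 0.05 unstimulated. Hamp, which encodes hepcidin and is a close copy of it, was at 0.18 ± 0.04. Slc40a1, the iron exporter ferroportin, was lower stimulated (18.2 and 24.3, -0.42 ± 0.07) and more so in value unstimulated (4.45 and 11.3, -1.35 ± 0.13).

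Ribosomal protein genes shared a small shift. Of 46 large-subunit genes 45 lay above 0 with a median of 0.15, and of 32 small-subunit genes 31 with a median of 0.14; none was called. The unstimulated medians were both 0.11. Of 36 complex I genes 34 lay above 0 with a median of 0.09, and Ndufa12 was higher (0.35 ± 0.07), a call that ended when genes were centred by exon length. These are short genes. Exon length was examined over genes whose counting SE was at most that of 50 reads in each library. The median ratio went from 0.09 in the shortest of 10 bins (median exon length 1360 bases) to -0.09 in the longest (12421 bases). Unstimulated it went from 0.06 to -0.04. Centring by exon length left medians of 0.09 (large subunit), 0.08 (small subunit) and 0.04 (complex I). The antiviral effectors had a median exon length of 2656 bases, on the side of the trend with ratios above 0, and their median was -0.45 after this centring. The number of interferon-list genes called lower was 68 with and without it, with 3 calls ended and 3 begun. What moves the ratio with length was not tested.

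**Figure D4:**
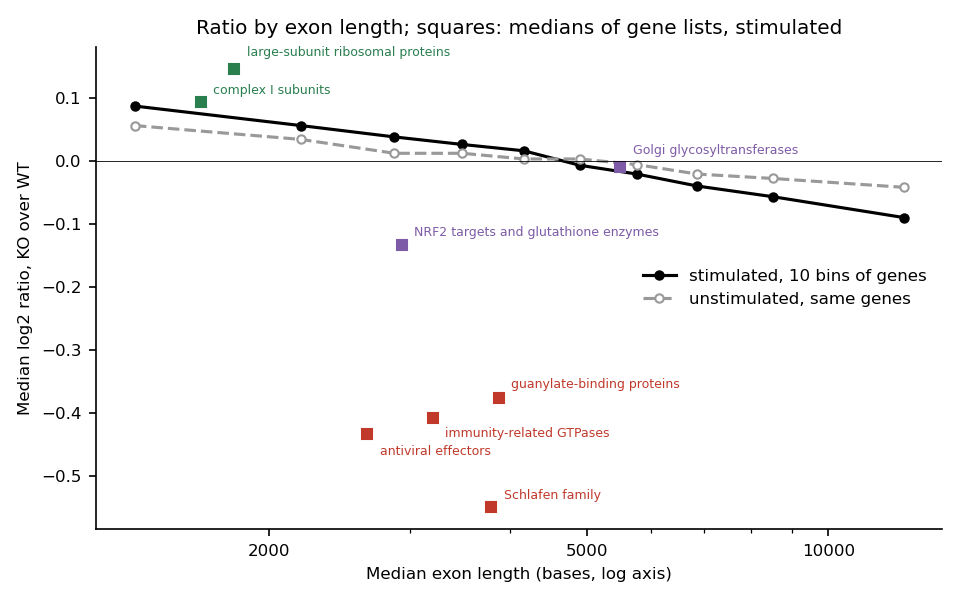
Median log2 ratio of KO over WT in 10 bins of genes ordered by exon length (log axis), for stimulated (filled) and unstimulated (open) libraries; squares are the stimulated medians of 8 gene lists at their own median length. The line falls from 0.09 to -0.09, the ribosomal and complex I squares lie near its short end and the 4 interferon-list squares lie between -0.38 and -0.55.

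The Golgi and coat genes, 81 in all, held 1 higher and 1 lower member, Pcsk5 and Golm1. None of 36 glycosyltransferase genes and none of 22 coat genes of COPI and COPII vesicles was called, with medians of -0.01 and 0.00. The sialyltransferase St6gal1 was at 0.19 ± 0.05, Mgat5, which builds branched N-glycans, at -0.17 ± 0.09 and B4galt1, a galactosyltransferase, at 0.06 ± 0.03. The matrix and stacking proteins Golga2 (-0.17 ± 0.03), Gorasp1 (0.05 ± 0.07) and Gorasp2 (-0.03 ± 0.03) were not called. Furin, which encodes a protease of the type that cleaves GOLPH2, was at 0.12 ± 0.01. Pcsk5, another proprotein convertase, had 23 reads in KO and 0 in WT, and 2 and 1 reads unstimulated. It was 7.86-fold higher stimulated when the WT library is set to a floor of 3 reads.

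Matrix genes made up much of the upper end of the table. Of 181 matrix and stroma genes 24 were higher and 10 lower, and they supplied 18 of the 35 genes (0.229% of the table) that were higher at 2-fold or more; 23 genes (0.15%) were lower at that size. Of the 24, 11 were also higher unstimulated. With centring by exon length 23 of the 181 were higher and 7 lower. Among 7 fibrillar collagens, the chains of rope-like fibres, Col1a1, Col1a2, Col3a1 and Col5a2 were higher and Col5a1 lower (-0.32 ± 0.07, a call that ended with centring by exon length). Col1a1 had 9.98 CPM in stimulated KO, 0.88 in stimulated WT, and 2.17 and 1.41 unstimulated, a stimulated ratio of 3.51 ± 0.26. Col1a2 had 6.69, 0.98, 2.07 and 0.81 in the same order (2.77 ± 0.25). Col3a1 had 226 reads in stimulated KO and 3 in WT, a 77.2-fold ratio with a 95% counting interval of 26.1 to 377.3. In all 4 genes the stimulated KO library was the highest of the 4, and the unstimulated KO library was above both WT libraries. Unstimulated, Col3a1 (38 and 4 reads, 3.06 ± 0.76), Col1a2 (82 and 28, 1.36 ± 0.32) and Col5a2 (145 and 54, 1.23 ± 0.23) were called higher and Col1a1 (0.62 ± 0.26) was not.

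Proteins that organise and modify the matrix were examined next. Of 31 glycoproteins and proteoglycans 6 were higher and 1 lower. Fn1, fibronectin, had 34.1 and 12.7 CPM stimulated (1.43 ± 0.08) and 752 and 313 reads unstimulated (1.07 ± 0.10). Tnc, tenascin-C, had 7.39 and 1.46 (2.34 ± 0.21), and Sparc, a collagen-binding protein, 5.57 and 1.41 (1.99 ± 0.22). Bgn (1.57 ± 0.21), Fbln2 (1.84 ± 0.31) and Lamb1 (1.56 ± 0.42) were the others. Thbs1, thrombospondin, was lower in both states (-0.47 ± at most 0.02 and -0.42 ± at most 0.02). The collagen chaperone Serpinh1 had 79 and 27 reads (1.59 ± 0.32) and the cross-linking enzyme Lox 629 and 455 (0.50 ± 0.09). Among growth signals Igfbp3 had 41 and 4 reads (3.39 ± 0.76), Igfbp5 89 and 13 (2.81 ± 0.43) and Pgf, placental growth factor, 5051 and 3240 (0.68 ± 0.03). Fgf7 had 22 and 3 reads, a 7.52-fold ratio with a counting interval of 2.26 to 39.2, and Ngfr 24 and 3 (8.20-fold, 2.49 to 42.5). H19, an imprinted RNA, had 0 reads in KO and 18 in WT, 5.85-fold lower when KO is set to the floor of 3 reads.

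Markers of fibroblasts were read beside these genes. Of 15 members 4 were higher (Col1a1, Col1a2, Col3a1 and Thy1) and 1 lower (Pdgfrb), and none was at 0 in either library. The 14 members with read counts summed to 152.5 CPM in KO and 115.9 in WT stimulated, and 13 members to 151.6 and 138 unstimulated. The 11 without the collagens summed to 129.7 and 114 stimulated, with 1 higher and 1 lower. Pdgfra had 24 and 17 reads (0.53 ± 0.46), Dcn 419 and 382 (0.17 ± 0.10), Lum 8 and 12, Fap 12 and 16, Postn 45 and 19 (1.28 ± 0.40) and Pdgfrb 150 and 257 (-0.74 ± 0.15). The part that other cell types in the culture have in the matrix genes was not tested.

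**Figure D5:**
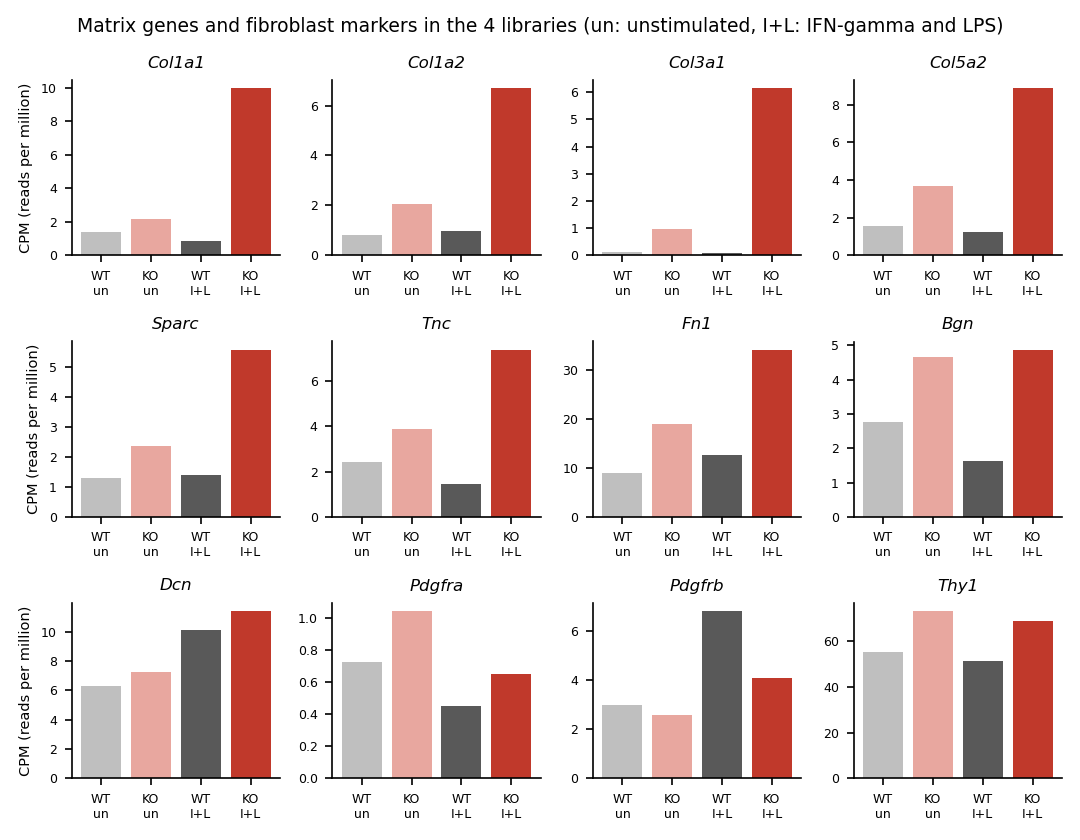
CPM of 8 matrix genes and 4 fibroblast markers (Dcn, Pdgfra, Pdgfrb, Thy1) in each of the 4 libraries, 1 bar per library with no error bar because each group holds 1 library. Col1a1 stands at 9.98 in stimulated KO and at 0.88 to 2.17 in the other libraries, whereas Dcn is at 11.4 and 10.1 in stimulated KO and WT.

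Markers of other blood cells were mostly not called. None of 9 neutrophil, 9 B cell, 4 mast cell and 7 plasmacytoid dendritic markers in the table was called. The neutrophil list summed to 22110 CPM in KO and 22860 in WT, nearly all of it Chil3 (21750 and 22450), which myeloid cells other than neutrophils also express, while the granule genes Mpo (4 and 11 reads), Ltf (1 and 4) and Camp (14 and 21) had few reads. All 9 B cell genes lay above 0, but they summed to 21.6 and 18.5 CPM with Cd22 included, and Cd79a had 40 and 16 reads (1.36 ± 0.43). Of 15 T and NK cell genes Gzmb, which encodes granzyme B, was higher (6.42 and 4.00, 0.68 ± 0.15), while Cd3e had 9 reads in each library. Ifng, made by T and NK cells as well as by myeloid cells, was described above; the source of its reads was not tested. None of 30 cell cycle genes was called, with Mki67 at 63.5 and 61.1 CPM (0.06 ± 0.04). Of 25 apoptosis genes the survival factors Bcl2a1b (0.53 ± 0.09) and Bcl2a1d (0.40 ± at most 0.02), near-identical copies, were higher (the call of Bcl2a1d ended with centring by exon length) and Daxx (-0.38 ± 0.04) was lower.

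Most called genes belong to no list: 131 of the 191 higher and 203 of the 323 lower. Mid1, a microtubule-binding ligase on the X chromosome, was higher in both states (2.31 ± at most 0.09 stimulated and 3.04 ± at most 0.14 unstimulated). Il13ra2, the decoy receptor for IL-13, had 44 and 11 reads (2.04 ± 0.49) and 23 and 17 unstimulated. Capn11, a calpain, had 0 reads in KO and 25 in WT, 8.13-fold lower when KO is set to the floor, and 1 and 40 unstimulated. Apol9a (11.7 and 25.1 CPM, -1.10 ± 0.08) and its close copy Apol9b (-1.03 ± 0.22) were lower stimulated, with unstimulated ratios of -0.03 ± 0.18 and 0.03 ± 0.57. The authors' deposited table marks 12 key genes, 5 higher and 7 lower in KO; among them its own log2 ratios are -1.20 for Ifit2, -1.18 for Ifit3, 1.39 for Fn1 and -1.31 for Tnfsf10.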

How the data were processed

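mRNA libraries of 4 groups, 1 each, were made with a strand-specific TruSeq preparation, per the labels' protocols. FastQC 0.10.1, HTSeq 0.6.0 and the build mm10 are named in the submitters' processing notes. Not given in the sources used here were the aligner, the annotation, the strand setting and the handling of multiply mapped reads. Per the file headers, the deposited values are a log2 fold change of KO over WT and a log10 p-value, which from its values is −log10 p as deposited by the authors. Groups came from the sample titles.

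The design assumed p-values whose squared SE is the sum of the reciprocal reads. The deposited values follow another form, a normal test on the log ratio whose variance depends on the geometric mean of both reads, and this was used instead. Its zero point (-0.036 stimulated, 0.191 unstimulated on the log2 scale) is the ratio of library totals, and subtracting it gives ratios of CPM, reads per 1000000 reads of a library. Whole reads were recovered within 0.1 read for 15260 of 15260 genes with p below its limit of 150 in the stimulated table, and for 15341 of 15343 in the unstimulated one. A read count of 0 had been entered as 0.5. SEs in the text come from the recovered reads, as the sum of the reciprocal reads. For genes at the limit of p they come from the deposited form instead.

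A gene was called at 1.25-fold or more and a Benjamini-Hochberg adjusted p under 0.001 over all rows of a table. The 73 gene lists and their members were chosen with earlier results of these data known. Genes named were Golm1, the 25 highest and 25 lowest at 1.5-fold, up to 8 called members of each list and members needed to describe roles; Phf11a and Mx1 were named after their values were seen. Some genes that this rule names are not reported here. Alternatives were the ratios as deposited, centring on the median gene, other fold and p thresholds, a depth filter, named genes only and centring by exon length. The depth filter kept genes whose counting SE was at most that of 50 reads in each library, and genes at the limit of p. A kept gene can thus have fewer than 50 reads in the KO or the WT library. In simulated data for KO against WT, stimulated (14860 genes), 85.7%, 92.9% and 100% of genes changed 1.5-, 2- and 4-fold were called, under counting error alone. The changed genes (70, 70 and 60) were drawn only from genes with at least 50 expected WT reads. These rates do not cover genes with fewer reads. Intervals cover counting error only. Folds against a floor take the reads of the other library as they stand. Positions and exon lengths came from RefSeq and GENCODE M21 (GRCm38). Analyses used Python 3.11.15, numpy 2.4.6, scipy 1.17.1, pandas 2.3.3 and matplotlib 3.10.9.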

Additional observations from a re-analysis of the deposited data

Results flagged for a closer look

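A total of 5 genes were called in opposite directions in the stimulated and the unstimulated libraries. The differences between the states were not tested, since each state holds 1 library per genotype. Ifit2 was at -1.17 stimulated and 0.33 unstimulated, a difference of -1.50 ± 0.09. Iigp1, an IRG effector GTPase, went from 0.49 unstimulated (12.2 and 8.66 CPM in KO and WT) to -0.52 stimulated (110.5 and 158.9), a difference of -1.01 ± 0.11. Mx1 differed by -0.97 ± 0.06 and Phf11a by -0.89 ± 0.13. Lars2, the mitochondrial leucyl-tRNA synthetase, moved the other way: it was higher stimulated (0.83 ± at most 0.03) and lower unstimulated (-1.30 ± at most 0.06), a difference of 2.13 ± at most 0.07. The other 36 aminoacyl-tRNA synthetase genes in the table were not called in stimulated cells.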

How the results depend on the processing

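The 191 higher and 323 lower calls became 65 and 91 at 1.5-fold, 821 and 1001 with the adjusted p alone, and 1760 and 1926 with the fold alone. Under the other alternatives the counts stayed within 1.5 times. They were 154 and 387 with the ratios as deposited, 188 and 328 centred on the median gene and 252 and 376 at an adjusted p under 0.01. The depth filter gave 177 and 321, named genes gave 187 and 298 and centring by exon length gave 165 and 288. Of the list medians, that of the 13 collagens that form no fibrils went from 0.79 to -0.29 with the depth filter, where 5 members remained. With that filter 5 further list medians changed sign, among them the collagen processing enzymes (0.16 to -0.05), and that of the B cell markers went from 1.07 to 0.03, where 1 gene remained. With centring by exon length 9 list medians within 0.05 of 0 changed sign. The medians of the 13 interferon lists kept their sign under every alternative run, except that of the inhibitors of cytokine signalling (0.01), which went to -0.03 with the ratios as deposited. At 1.5-fold the lower members numbered 11 in place of 20 antiviral effectors, 1 in place of 8 GBP genes and 0 in place of 5 PARP-family genes. No paired analysis was possible because each group holds 1 library, and leaving out a library leaves no comparison. Counting error limits genes with few reads: the 90th percentile of the SE was 1.02. No value here measures the spread between cultures, mice or preparations.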
